A study of Mus musculus with 12 samples.

Results

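Livers that lacked ApoE but kept Dscr-1 were set against livers that lacked Dscr-1 but kept ApoE. The comparison used the 4 arrays of these 2 single mutants, chosen by their titles, of 12 arrays in the series (8 from liver and 4 from aortic endothelial cells). Each genotype was measured on 2 arrays, which the series describes as independent experiments. The labels do not say that each array stands for its own animal, so p-values measure the spread between these samples, which may in part be technical. The first group came from ApoE null mice (label ApoE-KO) and the second from Dscr-1 null mice (label Dscr-1-KO). Adult mice of the C57BL/6J strain are given for both, with HFD (high-fat diet) for 12 weeks, and total RNA from whole liver. The study's results section gives normal chow for the liver arrays, so the diet is not settled. Both alleles were germline losses, absent from every cell type of the mouse and not from hepatocytes alone, and the mice were of lines described before. The sex of the mice is not given in the labels. The double null and WT livers (2 arrays each, same strain, age and diet in the labels) did not enter the difference. They served for the spread between arrays and for a second look at the same genes. They also entered the filter on dim probe sets and the choice of each gene's probe set. Every difference below is ApoE null minus Dscr-1 null on the log2(signal + 16) scale, where the signal is the deposited intensity and each array had been scaled to an average of 100.

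ApoE sits on the surface of chylomicron remnants and very-low-density lipoproteins and is the ligand by which hepatocytes take these particles out of the blood. Without it, remnants build up in plasma and are taken up by macrophages, among them the Kupffer cells of the liver. Dscr-1 is the protein of the Rcan1 gene. It binds and inhibits calcineurin, the calcium-activated phosphatase that sends NFAT transcription factors to the nucleus, and NFAT in turn induces Rcan1, which closes a feedback loop. Hepatocytes adjust their own cholesterol synthesis through SREBP2, a transcription factor held in the endoplasmic reticulum (ER) while sterols are plentiful.

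Of 14758 genes tested, 1 passed limma's moderated test at an adjusted p (Benjamini-Hochberg) under 0.05, which is 0.00678% of them. That gene was Apoe itself. The second lowest adjusted p of any gene was 0.63, so for every other gene named below the values are given without a call. Differences lay evenly around 0, with 7472 genes (50.6%) on the higher side and a median of 0.01. At an unadjusted p under 0.05, 3.03% of genes were higher and 2.17% lower. Both ApoE null arrays lay above both Dscr-1 null arrays for 16.3% of genes and below both for 15.4%. These shares are the background for the counts that follow, and "without overlap" below means that both arrays of 1 genotype lay on the same side of both arrays of the other.

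One array and 1 gene other than the targeted pair need to be known before the results. ApoE null replicate 1 correlated with the other 7 liver arrays at 0.839 on average, against 0.875 to 0.885 for each of the others, and its median signal was 44.7 where the others had 32.2 to 37.6. Hprt, a housekeeping enzyme of purine salvage on the X chromosome, had signals of 1019 and 933 in ApoE null livers, against 820 and 66 in Dscr-1 null livers. It had 884 and 913 in double null livers, against 47 and 55 in WT livers. Dscr-1 null replicate 2 thus resembled the WT arrays and not its own replicate at this locus, into which the study inserted Dscr-1 transgenes in other lines that the labels of these arrays do not name. Whether this array differs in genotype was not tested. For the gene groups described at length, values are also given without single arrays. The Y-linked genes Eif2s3y, Kdm5d and Uty gave signals of 48.0 to 409.3 over the 8 arrays. Hepatocyte markers were abundant in both genotypes, as in Alb, the albumin gene, at 64006 and 32854 in ApoE null livers, against 34806 and 35103 in Dscr-1 null livers. Alb had the highest difference of that list, at 0.39. Of 17 hepatocyte markers tested, 8 were on the higher side, with a median of −0.05. Without overlap 1 (5.88%, against 16.3% of all genes) was higher and 5 (29.4%, against 15.4%) were lower.

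Apoe was almost lost from ApoE null livers. Its signal was 305 and 177 in ApoE null livers, against 21510 and 19937 in Dscr-1 null livers. The means were 241 ± 90.4 in ApoE null livers and 20724 ± 1112 in Dscr-1 null livers (SD, n = 2 each). The fall was −6.38 on the log2 scale with a standard error of 0.38 (limma, adjusted p = 0.00642). The 2 double null arrays, at 84 and 80, and the 2 WT arrays, at 20045 and 19963, stood on the sides their labels give. The size hardly moved when 1 array was left out, but with so few arrays the call did: the adjusted p by limma was 0.0853 without ApoE null replicate 2, 0.185 and 0.165 without Dscr-1 null replicate 1 or 2, and 0.0508 without either WT array.

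Rcan1 did not separate the genotypes. Its brighter probe set gave 496.5 and 176.7 in ApoE null livers, against 255.2 and 353.1 in livers labelled Dscr-1 null. The difference was −0.01 with a standard error of 0.60. Its dimmer probe set gave 41.0 and 2.7 in ApoE null livers, against 7.5 and 5.1 in livers labelled Dscr-1 null. Signals of the brighter probe set in the mutant livers thus overlapped, and both Dscr-1 null arrays lay above the WT arrays, at 210.0 and 133.7. No source used here places the 2 probe sets inside or outside the deletion. They are therefore no check of the Dscr-1 label, on which every direction below rests.

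**Figure D1:**
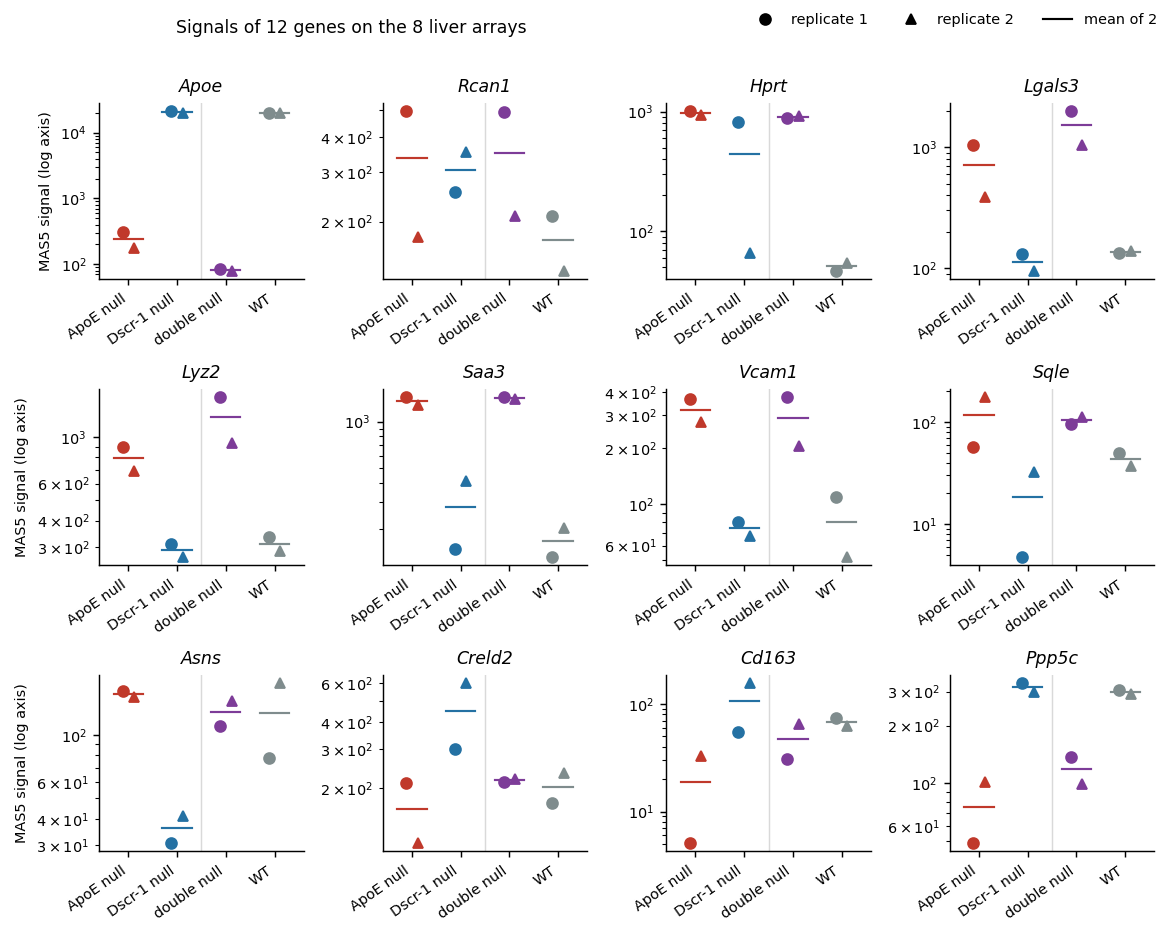
MAS5 signals (log axis, a separate range in each panel) of 12 genes on the 8 liver arrays, with ApoE null and Dscr-1 null left of the line and double null and WT right of it. Circles are replicate 1, triangles replicate 2 and bars the mean of 2 arrays. Apoe separates the genotypes by its labels, Rcan1 overlaps, and Hprt shows Dscr-1 null replicate 2 at 66 beside 820 in replicate 1.

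Macrophage genes made up the group with the highest median of the 37 gene lists examined. Of 27 tested markers of macrophages and Kupffer cells, 25 had a higher mean in ApoE null livers, and 18 (66.7%, against 16.3% of all genes) were higher without overlap. Only Cd163, of the 27, was lower without overlap. The median difference was 0.68, beside 0.01 for all genes. Summed over the list, the signal was 19657 and 13032 in ApoE null livers, against 9974 and 8206 in Dscr-1 null livers. None of the 27 passed the test. In whole liver, more macrophages and more RNA of these genes per macrophage cannot be told apart. The count of markers on the higher side stayed at 25 of 27 without ApoE null replicate 1 (median 0.66) and without Dscr-1 null replicate 2 (median 0.49).

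Lgals3 encodes galectin-3, a lectin of activated and lipid-laden macrophages. Its signal was 1044 and 388 in ApoE null livers, against 131 and 95 in Dscr-1 null livers, a difference of 2.36 (SE 0.55). The dimmer ApoE null array was still well above both Dscr-1 null arrays. Gpnmb, a membrane glycoprotein of lysosome-rich macrophages, had 324 and 82 in ApoE null livers, against 58 and 8 in Dscr-1 null livers (difference 2.11, SE 0.85). Lyz2, the lysozyme of myeloid cells, had 902 and 690 in ApoE null livers, against 310 and 269 in Dscr-1 null livers (difference 1.40, SE 0.40). In all 3 genes ApoE null replicate 1 was the brighter of its pair.

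Other members of the list, chosen in part after their values were seen, included genes whose arrays overlapped. Cd5l, a secreted scavenger protein that marks Kupffer cells, had 5413 and 3208 in ApoE null livers, against 1645 and 1745 in Dscr-1 null livers (difference 1.29, SE 0.46). The complement genes C1qa, C1qb and C1qc were each higher without overlap, with differences of 0.68, 0.96 and 0.77. Clec4f, the lectin that defines mouse Kupffer cells, had 1034 and 650 in ApoE null livers, against 704 and 459 in Dscr-1 null livers, and its arrays overlapped. Adgre1, the gene of F4/80, did not separate the genotypes at 198 and 194 in ApoE null livers, against 152 and 205 in Dscr-1 null livers. Cd163, the scavenger receptor for haemoglobin, ran the other way, with 5.1 and 32.8 in ApoE null livers, against 54.7 and 156.6 in Dscr-1 null livers (difference −1.78, SE 0.59). Itgam, the gene of CD11b, lay below the filter at 4.0 and 3.6 in ApoE null livers, against 2.3 and 37.7 in Dscr-1 null livers. The scavenger receptor Msr1 had 154 and 189 in ApoE null livers, against 151 and 105 in Dscr-1 null livers. It counted as higher without overlap, but its nearest arrays were almost level, at 154.1 and 151.3. Dimmer Msr1 probe sets differed by 0.26 with overlap and by −1.30, lower without overlap, so Msr1 has no settled direction.

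**Figure D2:**
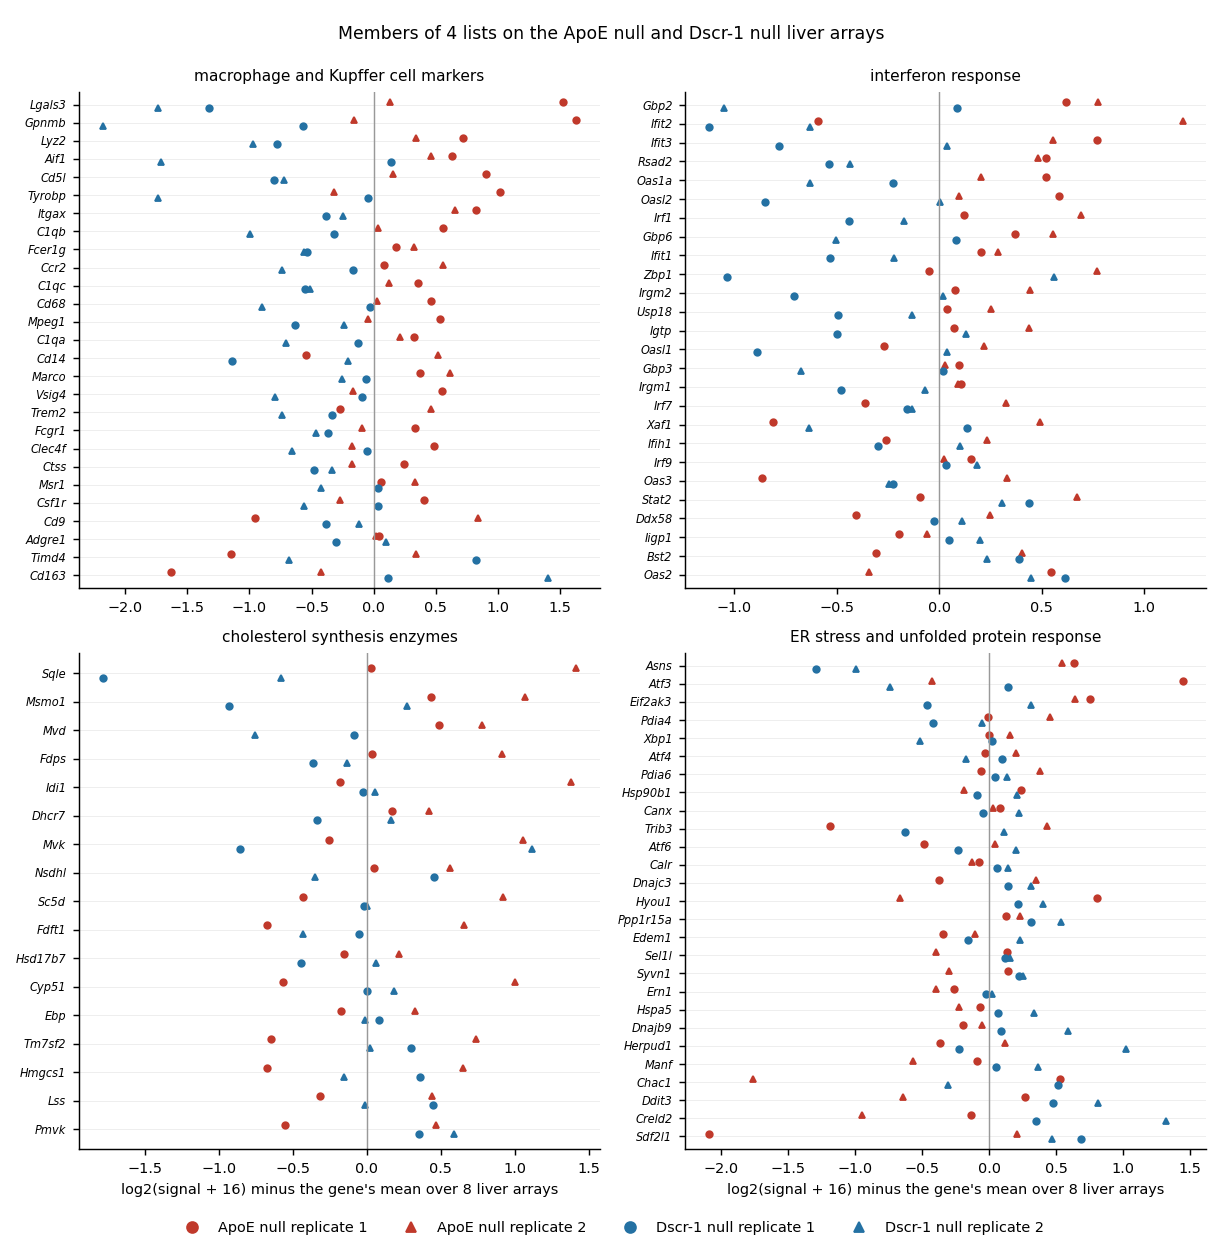
Each member of 4 gene lists on the ApoE null (red) and Dscr-1 null (blue) arrays, as log2(signal + 16) minus the mean of that gene over the 8 liver arrays (x axis), sorted by the difference between the genotypes. Circles are replicate 1 and triangles replicate 2. In the macrophage panel 18 of 27 genes have both red points right of both blue points. In the cholesterol panel the ApoE null replicates themselves lie apart, with replicate 2 to the right.

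Genes of antigen presentation and adhesion were mixed. The MHC class II genes Cd74, H2-Aa and H2-Ab1 were each higher without overlap, with differences of 0.82, 0.77 and 0.71. H2-Aa, for example, had 947 and 858 in ApoE null livers, against 567 and 480 in Dscr-1 null livers. Of 9 tested genes of class II presentation 6 were on the higher side and 3 on the lower, with a median of 0.23. Without overlap 3 (33.3%, against 16.3% of all genes) were higher and 1 (11.1%, against 15.4%) lower. Of 13 class I and immunoproteasome genes 9 were on the higher side and 4 on the lower, with a median of 0.18.

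Vcam1, the endothelial adhesion molecule that captures monocytes and lymphocytes, had 368 and 276 in ApoE null livers, against 80.7 and 67.5 in Dscr-1 null livers (difference 1.90, SE 0.46). Its 2 other probe sets were dim, with signals no higher than 54.1 on the 4 arrays, and differed by 1.49 and −0.71. Icam1, its partner in leukocyte arrest, had 115 and 72.1 in ApoE null livers, against 41.9 and 11 in Dscr-1 null livers (difference 1.44, SE 0.48). The chemokines did not share a direction. Cxcl1, which attracts neutrophils, had 511 and 1069 in ApoE null livers, against 265 and 301 in Dscr-1 null livers (difference 1.34, SE 0.45). Cxcl2, a close relative, was dim at 7.7 and 5.3 in ApoE null livers, against 58.4 and 52.6 in Dscr-1 null livers (difference −1.67, SE 0.42). Over the whole list of 31 cytokines, chemokines and adhesion molecules 15 were higher and 16 lower, with a median of −0.05 that was 0.26 without Dscr-1 null replicate 1.

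Markers of other cell types were counted beside these groups. Of 18 stellate cell and fibroblast markers, 14 were on the higher side and 7 (38.9%, against 16.3% of all genes) were higher without overlap. The median of the 18 was 0.37, and 0.17 without Dscr-1 null replicate 2. Col3a1, a fibrillar collagen, had 1170 and 1564 in ApoE null livers, against 804 and 608 in Dscr-1 null livers. Of 21 endothelial markers 10 were on the higher side, with a median of −0.15 that turned to 0.57 without Dscr-1 null replicate 1 and 0.45 without ApoE null replicate 2. Of 9 neutrophil markers 5 were, with a median of 0.10 that was −0.37 without ApoE null replicate 1, 0.67 without ApoE null replicate 2 and −0.12 without either Dscr-1 null array. No direction can be read for these cell types. S100a9 was the only neutrophil marker without overlap, at 39.4 and 69.9 in ApoE null livers, against 9.4 and 7.5 in Dscr-1 null livers. Of 15 lymphocyte markers 10 were on the higher side (median 0.46, and 0.22 without Dscr-1 null replicate 2). Ighm, the heavy chain of IgM, was lower at 11.6 and 28.1 in ApoE null livers, against 147 and 145 in Dscr-1 null livers, but its other probe sets ran from −0.54 to 1.12, so the gap is that of 1 probe set. The part of the other cell types in the differences was not tested.

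Acute phase genes split into a few with wide gaps and many without. Saa3, the serum amyloid gene that macrophages and adipocytes also make, had 1443 and 1275 in ApoE null livers, against 147 and 408 in Dscr-1 null livers (difference 2.38, SE 0.50). Lcn2, an iron-siderophore binder induced in injured hepatocytes, had 533 and 309 in ApoE null livers, against 66.9 and 229 in Dscr-1 null livers (difference 1.57, SE 0.72). Mt2, a metallothionein, had 386 and 231 in ApoE null livers, against 42 and 223 in Dscr-1 null livers. In each of these Dscr-1 null replicate 2 was the brighter of its pair. The major plasma proteins of the list lay close together. Fgb, a fibrinogen chain, differed by 0.01 and Crp by −0.12, and the median of 25 acute phase genes was 0.01. That median averages ApoE null replicates that disagree, since it was 0.33 with 20 of 25 genes higher without replicate 1 and −0.14 with 12 higher without replicate 2. It was −0.10 without Dscr-1 null replicate 1 and 0.19 without Dscr-1 null replicate 2. The ferroxidase Cp, ceruloplasmin, had 18697 and 19353 in ApoE null livers, against 20825 and 20349 in Dscr-1 null livers (difference −0.11).

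Interferon-induced genes also lay mostly on the higher side. Of 26 tested, 19 had a higher mean in ApoE null livers, 13 (50%, against 16.3% of all genes) were higher without overlap and 1, Iigp1, was lower without overlap. The median was 0.42. It was 0.59 without ApoE null replicate 1 and 0.58 without Dscr-1 null replicate 2, but 0.20 without Dscr-1 null replicate 1 and 0.27 without ApoE null replicate 2. Many of these genes carry the interferon-stimulated response element (ISRE), where the ISGF3 complex and IRF factors bind. The element was searched as GAAA, any 2 bases and GAAA again, on both strands in RefSeq promoters (GRCm38.p6), from 250 bases before to 50 after each gene's start, and lay in 14 of the 21 list members with a promoter in that table, against 3.63% of 11838 tested genes. Stretches of 5 members that were higher without overlap are shown so that the element can be read beside their values, on the strand of the gene, with every match before the start in capitals.
Ifit3, chr19:34583372-34583451, plus strand: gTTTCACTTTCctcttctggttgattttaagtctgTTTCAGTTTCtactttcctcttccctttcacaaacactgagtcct
Gbp2, chr3:142620569-142620648, plus strand: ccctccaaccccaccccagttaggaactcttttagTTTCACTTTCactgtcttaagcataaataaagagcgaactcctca
Rsad2, chr12:26456528-26456607, minus strand: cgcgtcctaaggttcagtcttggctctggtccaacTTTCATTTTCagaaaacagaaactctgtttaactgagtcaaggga
Oas1a, chr5:120907526-120907574, minus strand: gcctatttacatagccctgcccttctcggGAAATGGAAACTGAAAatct
Irgm2, chr11:58214878-58214957, plus strand: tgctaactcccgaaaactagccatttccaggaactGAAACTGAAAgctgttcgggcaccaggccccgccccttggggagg

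Ifit3, whose protein binds foreign RNA together with its relatives, had 270 and 230 in ApoE null livers, against 81.4 and 156 in Dscr-1 null livers (difference 1.03, SE 0.44). Gbp2, a GTPase that attacks the vacuoles of microbes, had 150 and 170 in ApoE null livers, against 98.9 and 36.2 in Dscr-1 null livers (difference 1.18, SE 0.52). Rsad2, the antiviral enzyme viperin, had 463 and 451 in ApoE null livers, against 214 and 231 in Dscr-1 null livers (difference 0.99, SE 0.45). On these probe sets the ApoE null replicates of all 3 genes lay close together. Dimmer Rsad2 probe sets, whose ApoE null replicates lay apart, overlapped and differed by 0.20 and 0.50. Irf1, a transcription factor of the interferon response, had 223 and 339 in ApoE null livers, against 147 and 180 in Dscr-1 null livers (difference 0.71, SE 0.40). The match to the element did not sort the members: 8 of 14 with it and 3 of 7 without it were higher without overlap, with medians of 0.42 and 0.40.

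Cholesterol synthesis enzymes leaned to the higher side, but the lean came from 1 array. Of 17 tested, 13 had a higher mean in ApoE null livers, with a median of 0.25. Without overlap 5 (29.4%, against 16.3% of all genes) were higher and 0 (against 15.4%) lower. Summed over the 17 enzymes the signal was 5731 and 11814 in ApoE null livers, against 7254 and 6956 in Dscr-1 null livers, so the ApoE null replicates lay on either side of the Dscr-1 null pair. Without ApoE null replicate 1, which stood apart over all genes, 16 of 17 were higher with a median of 0.90. Without ApoE null replicate 2, 7 of 17 were, with a median of −0.21. The direction of this list therefore cannot be read from these arrays.

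Of the 17 enzymes 12 overlapped, and 3 of the others, taken for their low p, had these values. Sqle, squalene epoxidase and the first oxygen-dependent step, had 57.4 and 176 in ApoE null livers, against 4.8 and 32.1 in Dscr-1 null livers (difference 1.91, SE 0.58). Mvd, the mevalonate decarboxylase, had 62.6 and 80.2 in ApoE null livers, against 36.6 and 17.2 in Dscr-1 null livers (difference 1.06, SE 0.39), and a probe set of it near background differed by −0.09. Msmo1, a sterol methyl oxidase, had 300 and 475 in ApoE null livers, against 106 and 266 in Dscr-1 null livers (difference 1.08, SE 0.66). Hmgcs1, the synthase that makes HMG-CoA, overlapped at 572 and 1461 in ApoE null livers, against 1191 and 827 in Dscr-1 null livers. It was the 1 enzyme of 14 whose promoter held the sterol regulatory element searched as TCAC, any 1 base and CCAC, on both strands (1.47% of tested genes did), and its element is shown because SREBP2 is named for it.
Hmgcs1, chr13:119690179-119690257, plus strand: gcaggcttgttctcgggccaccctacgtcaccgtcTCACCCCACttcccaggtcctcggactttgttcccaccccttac

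Regulators of sterol balance had no shared direction. Srebf2, the gene of SREBP2, had 127 and 138 in ApoE null livers, against 69.6 and 107 in Dscr-1 null livers (difference 0.54, SE 0.50). A dimmer Srebf2 probe set had 96.8 and 70.8 in ApoE null livers, against 12.6 and 37.1 in Dscr-1 null livers (difference 1.34). Both probe sets were higher without overlap. Insig1, which holds SREBP2 back in the ER and is itself a target of it, had 593 and 958 in ApoE null livers, against 1212 and 771 in Dscr-1 null livers. Of 14 genes of SREBP2 control and lipoprotein uptake, 6 were on the higher side and the median was −0.08. Npc2 carries cholesterol out of lysosomes. It had 3017 and 1595 in ApoE null livers, against 1279 and 1146 in Dscr-1 null livers (difference 0.85, SE 0.41), and its other probe sets differed by 0.49 and −0.26. Lipa, the lysosomal acid lipase, differed by 0.71 on its brightest probe set and by −0.23 and −0.13 on the others, so it has no settled direction.

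Of 9 genes of cholesterol efflux and LXR response 4 were higher and 5 lower. Without overlap 2 (22.2%, against 16.3% of all genes) were higher and 2 (22.2%, against 15.4%) lower. The median of the 9 was −0.10, and 0.09 without ApoE null replicate 1. Pltp, the phospholipid transfer protein that macrophages and hepatocytes both secrete, had 1043 and 755 in ApoE null livers, against 493 and 413 in Dscr-1 null livers (difference 0.95, SE 0.39). Abcg5 and Abcg8 form the hepatocyte pump that moves sterols into bile. Abcg5 had 1264 and 1368 in ApoE null livers, against 2428 and 1806 in Dscr-1 null livers (difference −0.66, SE 0.37). Abcg8 had 544 and 705 in ApoE null livers, against 869 and 930 in Dscr-1 null livers (difference −0.53, SE 0.35). Both subunits were lower without overlap. Cyp7a1, which starts the classical route to bile acids, overlapped at 1324 and 1199 in ApoE null livers, against 1203 and 2956 in Dscr-1 null livers.

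The other apolipoproteins showed no shared direction. Of 18 genes of apolipoproteins and lipoprotein assembly, with Apoe not among them, 0 (against 16.3% of all genes) were higher without overlap. Lower without overlap were 2 (11.1%, against 15.4%), Angptl4 and Apoc4. Apoc4, a neighbour of Apoe in the same gene cluster, had 9286 and 6336 in ApoE null livers, against 10349 and 9988 in Dscr-1 null livers. Apob, the structural protein of the particles, had 10318 and 7250 in ApoE null livers, against 11064 and 8047 in Dscr-1 null livers (difference −0.13, SE 0.58). Angptl4, an inhibitor of lipoprotein lipase, had 490 and 447 in ApoE null livers, against 870 and 737 in Dscr-1 null livers (difference −0.76, SE 0.38).

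Lipogenic genes leaned to the lower side in ApoE null livers, with exceptions, but not when Dscr-1 null replicate 1 was left out. Of 22 genes of fatty acid and triglyceride synthesis, 13 were on the lower side and 8 (36.4%, against 15.4% of all genes) were lower without overlap, with a median of −0.17. The median was −0.15 without ApoE null replicate 1 and −0.21 without Dscr-1 null replicate 2. Without Dscr-1 null replicate 1 it was −0.01, with 11 genes higher and 11 lower. Srebf1, the master factor of lipogenesis, had 2131 and 3405 in ApoE null livers, against 5056 and 4030 in Dscr-1 null livers (difference −0.74, SE 0.46). Fasn, the fatty acid synthase, had 1583 and 2407 in ApoE null livers, against 3536 and 2874 in Dscr-1 null livers (difference −0.70, SE 0.62). Lpin1, a phosphatidate phosphatase, had 903 and 687 in ApoE null livers, against 1651 and 1843 in Dscr-1 null livers (difference −1.13, SE 0.47). Scd1, the most abundant desaturase of liver, did not follow them, with 42681 and 30153 in ApoE null livers, against 33406 and 31142 in Dscr-1 null livers. Scd2, the desaturase of non-hepatocyte cells, was higher without overlap on its brightest probe set (difference 1.04, SE 0.48). Its dimmer probe sets overlapped and differed by −0.12 and −0.06, so they did not share the gap.

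Respiratory chain genes were lower by a small and even amount. Of 31 nuclear-encoded subunits, 27 had a lower mean in ApoE null livers and 13 (41.9%, against 15.4% of all genes) were lower without overlap. The median was −0.24 and the whole list ran between −0.56 and 0.16. It was −0.19 without ApoE null replicate 1 and −0.20 without Dscr-1 null replicate 2. Ndufb5, a subunit of complex I, had 1317 and 1108 in ApoE null livers, against 1765 and 1754 in Dscr-1 null livers (difference −0.54, SE 0.35). Another Ndufb5 probe set of like brightness overlapped and differed by −0.06. Cyc1, the cytochrome of complex III, had 2405 and 2602 in ApoE null livers, against 3177 and 3240 in Dscr-1 null livers (difference −0.36). None of the 31 had an unadjusted p under 0.05, and the median standard error over all genes was 0.46.

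Genes of glucose metabolism and targets of PPAR-alpha held single wide gaps. Pfkfb3, which makes the activator of glycolysis, had 103 and 31.6 in ApoE null livers, against 153 and 367 in Dscr-1 null livers (difference −1.76, SE 0.64). G6pc, the last enzyme of glucose release, had 984 and 1100 in ApoE null livers, against 1471 and 2556 in Dscr-1 null livers (difference −0.89, SE 0.46). Of 18 genes of gluconeogenesis and insulin response, 8 (44.4%, against 15.4% of all genes) were lower without overlap. The median of the 18 was −0.23, but 0.09 without Dscr-1 null replicate 2. Among targets of PPAR-alpha, Fgf21, a fasting hormone, had 29.2 and 90.3 in ApoE null livers, against 5.5 and 10.1 in Dscr-1 null livers (difference 1.55, SE 0.50). Of 22 genes of that list 10 were on the higher side, with a median of −0.05.

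The ER stress list leaned to the lower side and carried a wide exception. Of 27 tested, 20 had a lower mean in ApoE null livers. Without overlap 10 (37%, against 15.4% of all genes) were lower and 3 (11.1%, against 16.3%) higher. The median was −0.24. It was −0.22 without ApoE null replicate 1, −0.14 without Dscr-1 null replicate 2 and −0.33 without Dscr-1 null replicate 1. Creld2, a chaperone-like protein of the ER, had 210 and 113 in ApoE null livers, against 300 and 603 in Dscr-1 null livers (difference −1.38, SE 0.47). Ddit3, the gene of CHOP, which promotes death under lasting stress, had 112 and 52.2 in ApoE null livers, against 132 and 171 in Dscr-1 null livers (difference −0.83, SE 0.44). Hspa5, the chief chaperone of the ER, had 8934 and 8041 in ApoE null livers, against 9835 and 11821 in Dscr-1 null livers (difference −0.35). Dscr-1 null replicate 2 was the brightest of the 4 arrays for all 3 genes.

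Asns ran against its list. The enzyme makes asparagine and belongs to the amino acid arm of the response under ATF4. It had 161 and 151 in ApoE null livers, against 30.8 and 41.5 in Dscr-1 null livers (difference 1.73, SE 0.44), though a dimmer probe set of it differed by only 0.15. The study followed the stress sensors ATF4, ATF6 and XBP1 as proteins, by western blot in HepG2 cells. Their RNA in whole liver, which does not measure those proteins, overlapped on the brightest probe sets. Atf4 had 524 and 616 in ApoE null livers, against 572 and 474 in Dscr-1 null livers. Atf6 had 253 and 372 in ApoE null livers, against 304 and 417 in Dscr-1 null livers. Xbp1 had 3803 and 4255 in ApoE null livers, against 3873 and 2660 in Dscr-1 null livers, and the array does not tell its spliced form from the unspliced one. Dimmer Xbp1 probe sets differed by 0.58 and 0.43, both higher without overlap, and by 0.14 with overlap.

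The ER stress response element (ERSE), bound by ATF6 together with NF-Y, was searched as CCAAT, any 9 bases and CCACG, on both strands. It lay in 8 of the 24 members with a promoter, against 0.144% of tested genes. Of the 8, 4 were lower and 0 higher without overlap, and of the 16 without a match 5 were lower and 3 higher, Asns among those 3. The medians were −0.22 with the element and −0.26 without it, so the match did not sort the members. The 4 lower members with a match are shown with the element in capitals.
Creld2, chr15:88819485-88819573, plus strand: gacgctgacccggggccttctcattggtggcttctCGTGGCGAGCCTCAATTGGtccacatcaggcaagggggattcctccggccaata
Hspa5, chr2:34771990-34772078, plus strand: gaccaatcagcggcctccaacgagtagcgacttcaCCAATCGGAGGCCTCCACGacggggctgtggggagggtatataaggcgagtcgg
Calr, chr8:84847040-84847128, minus strand: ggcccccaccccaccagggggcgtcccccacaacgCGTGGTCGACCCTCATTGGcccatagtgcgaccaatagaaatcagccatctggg
Syvn1, chr19:6046497-6046575, plus strand: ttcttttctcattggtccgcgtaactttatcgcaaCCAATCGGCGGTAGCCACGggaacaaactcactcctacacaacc

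Clock outputs and immediate early genes are known to follow the hour and the handling of an animal. Ciart, a repressor within the clock loop, had 35.5 and 45.5 in ApoE null livers, against 103 and 128 in Dscr-1 null livers (difference −1.22, SE 0.43). Usp2, a deubiquitinase under clock control, had 451 and 421 in ApoE null livers, against 711 and 933 in Dscr-1 null livers (difference −0.88, SE 0.35). Over the list of 18 clock genes 6 (33.3%, against 15.4% of all genes) were lower and 3 (16.7%, against 16.3%) higher without overlap. Rora, an activator of the loop, was among the lower ones with a difference of −0.62, and Arntl, the gene of BMAL1, among the higher ones with 0.78. Other Rora probe sets ran from −0.57 to 0.62, the last of these higher without overlap, so Rora has no settled direction. The median of the list was −0.20, but 0.02 without ApoE null replicate 2 and −0.01 without Dscr-1 null replicate 2. Egr1, an immediate early factor, had 169 and 791 in ApoE null livers, against 73.0 and 165 in Dscr-1 null livers (difference 1.61, SE 0.69). Fos, of the same class, overlapped at 7.2 and 197 in ApoE null livers, against 23.2 and 153 in Dscr-1 null livers. No source used here gives the hour of collection, and its part in these differences was not tested.

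**Figure D3:**
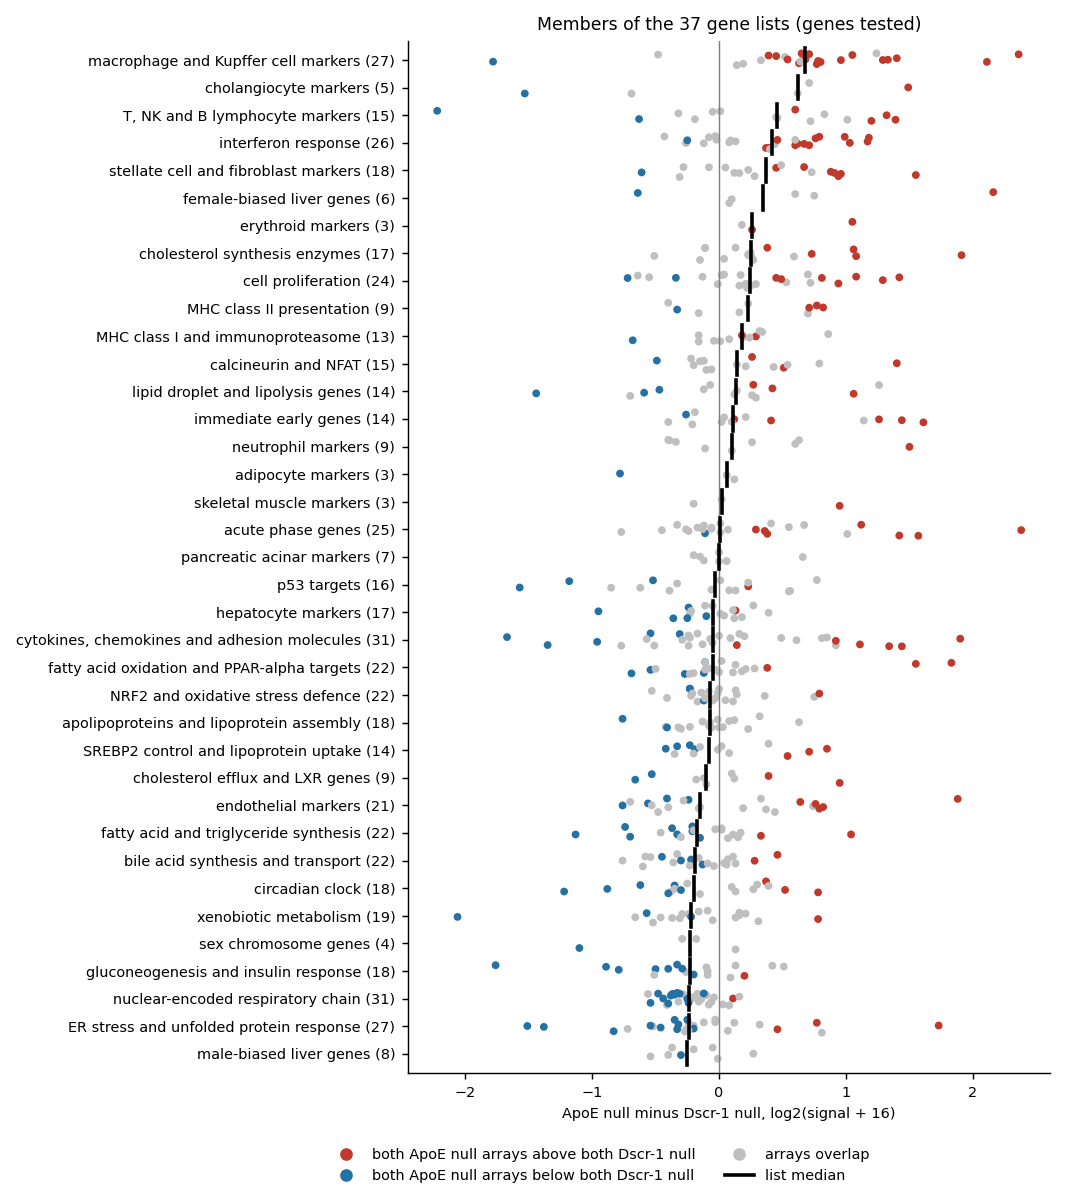
Difference between ApoE null and Dscr-1 null livers (x axis, log2(signal + 16)) for each tested member of the 37 gene lists, with the number of genes tested in brackets and lists ordered by their median (black bar). Red points are genes with both ApoE null arrays above both Dscr-1 null arrays, blue points the reverse and grey points genes whose arrays overlap. Macrophage and Kupffer cell markers stand at the top with a median of 0.68, and the respiratory chain near the bottom is the narrowest of the long lists.

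Calcineurin and NFAT genes, the pathway that Dscr-1 restrains, gave few differences. Of 15 tested, 8 were on the higher side, with a median of 0.14. Without overlap 3 (20%, against 16.3% of all genes) were higher and 1 (6.67%, against 15.4%) lower. Rcan3, a relative of Rcan1, had 63.1 and 55.8 in ApoE null livers, against 3.3 and 26.3 in Dscr-1 null livers (difference 1.40, SE 0.60). Dyrk1a, a kinase that opposes NFAT and lies in the same chromosomal region as Rcan1, had 82.6 and 78.3 in ApoE null livers, against 46.2 and 57.4 in Dscr-1 null livers (difference 0.51, SE 0.35). Other Dyrk1a probe sets overlapped and differed by 0.77 and −0.30. The NFAT genes overlapped on their brightest probe sets. Nfatc1 differed by −0.10, Nfatc2 by −0.15, Nfatc3 by 0.14 and Nfatc4 by 0.54, each with a standard error of 0.36 to 0.50. Other Nfatc2 probe sets were all on the higher side, at 0.71, 1.3 and 0.93, unlike the −0.15 above. Another Nfatc3 probe set differed by −1.01, so neither gene has a settled direction. Ppp3ca, the main catalytic subunit of calcineurin, had 270 and 182 in ApoE null livers, against 215 and 272 in Dscr-1 null livers.

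Size and separation together picked 198 genes, with a difference over 1 on the log2 scale, no overlap and a mean signal over 100 in the higher genotype. Of these 112 were higher in ApoE null livers (0.759% of genes tested) and 86 lower (0.583%). The rule used this contrast, so these values are descriptions. The 10 higher genes with the widest gap between the nearest arrays were Olig1, Saa3, Vcam1, Asns, Lgals3, Arid3a, Lgmn, Brca1, Clec7a and Tube1. The 10 lower ones were Apoe, Slc8a1, Ighm, Gpr162, 1700003E16Rik, Ppp5c, Tcim, Tsc22d3, Pfas and Tmem63b. Of the lists, macrophage markers held the most of them, with 5 higher (Aif1, Cd5l, Gpnmb, Lgals3 and Lyz2) and 1 lower (Cd163).

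Several of these genes stand outside every list. Clec7a, the receptor dectin-1 of myeloid cells, had 556 and 376 in ApoE null livers, against 155 and 139 in Dscr-1 null livers (difference 1.54, SE 0.39). Lgmn, a lysosomal protease abundant in macrophages, had 435 and 516 in ApoE null livers, against 144 and 165 in Dscr-1 null livers (difference 1.53, SE 0.60). Both genes are expressed by macrophages but were not on the marker list. Tsc22d3, known as GILZ and induced by glucocorticoids, had 453 and 454 in ApoE null livers, against 1015 and 2055 in Dscr-1 null livers (difference −1.64, SE 0.47), with dimmer probe sets at −0.72, −0.52 and 0.40. Tcim, a small nuclear regulator, had 150 and 181 in ApoE null livers, against 417 and 614 in Dscr-1 null livers (difference −1.53, SE 0.48). Olig1, Brca1 and Tube1 were near the floor in Dscr-1 null livers, with signals of 3.5 to 32.4.

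The double null and WT livers offered 4 arrays that the rule of size and separation had not used, and they also differ in ApoE. They differ in Dscr-1 as well, in the opposite arrangement, since the double null livers lack both. The filter and the choice of each gene's probe set had used all 8 liver arrays. Of the 112 genes higher in ApoE null livers, 75 (67%) also had a higher mean in double null livers than in WT, as 50.8% of all genes had, with a median of 0.45. In 56 of them (50%, against 19.7% of all genes) both double null arrays lay above both WT arrays. Of the 85 lower genes other than Apoe, 52 (61.2%, against 49.2% of all genes) had a lower mean in double null livers than in WT, with a median of −0.18, and 15 (17.6%, against 18.6% of all genes) without overlap. The lower genes as a set were therefore no more often separated in the second pair than genes in general.

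Macrophage and acute phase genes were among those higher in both pairs. Lgals3 had 2008 and 1051 in double null livers, against 133 and 139 in WT livers, a difference of 3.28. Saa3 had 1452 and 1397 in double null livers, against 131 and 203 in WT livers (difference 3.0). Lcn2 had 812 and 459 in double null livers, against 6.5 and 53.8 in WT livers (difference 3.98). In these genes the 4 livers without ApoE all lay above the 4 with it. The summed signal of the macrophage markers was 29292 and 19087 in double null livers, against 8063 and 10124 in WT livers, and the list's median difference was 0.96. The interferon list had a median of 0.28 in that pair, the cholesterol enzymes 0.05, the respiratory chain −0.17 and the ER stress list 0.06.

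Other genes showed no such repeat. Asns had 110 and 145 in double null livers, against 77.7 and 176 in WT livers, and Creld2 had 213 and 221 in double null livers, against 172 and 234 in WT livers. Lpin1 lay the other way, with 1712 and 1460 in double null livers, against 1061 and 437 in WT livers (difference 1.19). Cyp4a14, a fatty acid hydroxylase under PPAR-alpha, had 280 and 538 in ApoE null livers, against 79.5 and 120 in Dscr-1 null livers, but 55.6 and 22.7 in double null livers, against 144 and 2381 in WT livers. One WT array therefore set most of that gap.

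**Figure D4:**
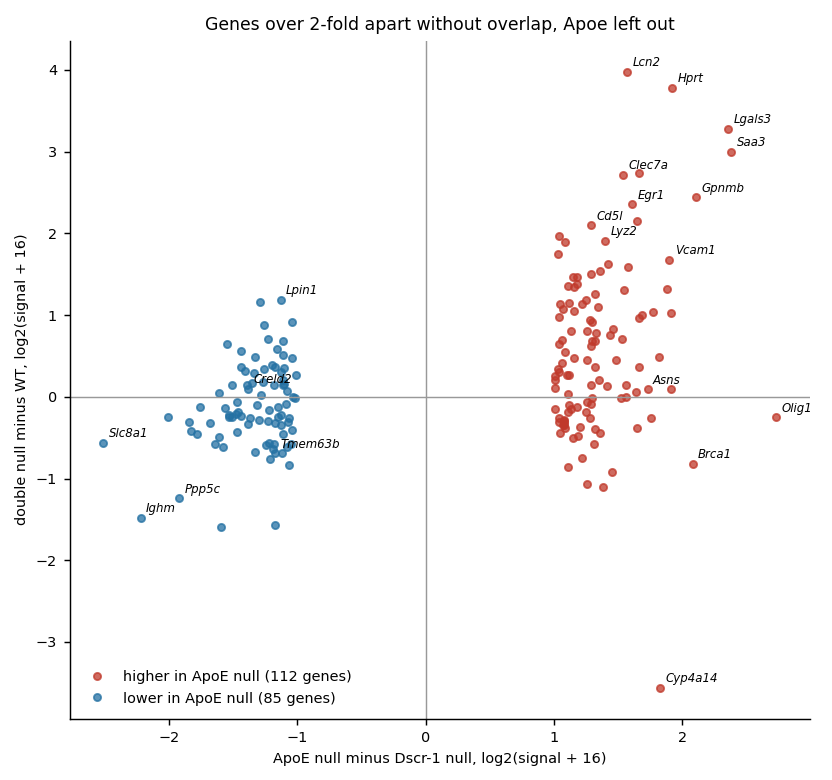
Genes over 2-fold apart without overlap between ApoE null and Dscr-1 null livers, with Apoe left out. The x axis is ApoE null minus Dscr-1 null and the y axis double null minus WT, both on the log2(signal + 16) scale. Of 112 genes higher in ApoE null livers (red) 75 lie above 0 on the y axis, and of 85 lower genes (blue) 52 lie below it.

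Across all genes tested, 331 (2.24%) had all 4 arrays without ApoE above all 4 with it, and 240 (1.63%) had them below. For genes beside the targeted loci, the 50 protein-coding genes on either side of Apoe in the RefSeq order of chromosome 7 were read. Of the 100 neighbours 44 were tested, 22 on either side of 0, with a median of −0.02. Without overlap 11 (25%, against 16.3% of all genes) were higher and 8 (18.2%, against 15.4%) lower. Trappc6a, Ppp1r37, Gemin7 and Igsf23 had all 4 arrays without ApoE above the other 4 (4 of 44, against 2.24% of all genes). Ccdc61, Opa3 and Ercc2 had them below (3 of 44, against 1.63%). Ercc2, a helicase of DNA repair, had 19.4 and 27.5 in ApoE null livers, against 87.0 and 110.5 in Dscr-1 null livers, and 23 and 22.9 in double null livers, against 83.5 and 52.3 in WT livers.

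Ppp5c, a phosphatase gene 71 protein-coding genes before Apoe on chromosome 7, gave one of the widest gaps of all. It had 49.1 and 101 in ApoE null livers, against 333 and 299 in Dscr-1 null livers (difference −1.92, SE 0.41), and 137 and 99.8 in double null livers, against 307 and 293 in WT livers. Its 2 other probe sets differed by 0.45 and −0.25, so the gap belongs to 1 probe set and not to the gene as a whole. Sae1, a subunit of the SUMO activating enzyme 91 genes before Apoe, had 424 and 577 in ApoE null livers, against 115.7 and 214.1 in Dscr-1 null livers (difference 1.55), and was singled out after its values were seen. Whether sequence carried along with the targeted allele bears on these probe sets was not tested. Around Rcan1 on chromosome 16, 64 of 100 neighbours were tested, and 38 were higher and 26 lower. Without overlap 11 (17.2%, against 16.3% of all genes) were higher and 8 (12.5%, against 15.4%) lower.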

How the data were processed

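Liver RNA was hybridised to Affymetrix Mouse Genome 430 2.0 arrays. The authors computed the deposited intensity of each probe set by MAS5 in the Affymetrix operating software and scaled each array to an average of 100. Replicates were not pooled, and no detection calls were used. The deposited log2 values of the aortic arrays entered no comparison. Genome build and annotation version are not given in the sources used here. Of 45101 probe sets, 34945 were paired with 1 gene, 932 with several and 9160 with none, and 64 were controls.

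Intensities were taken as log2(signal + 16) without further scaling. The 32005 probe sets above their array's median on at least 2 of 8 liver arrays were fitted with limma 3.58.1 (R 4.3.3), with a mean for each of 4 genotypes (4 residual degrees of freedom), and p-values were adjusted over all of them by Benjamini-Hochberg. The brightest probe set with 1 gene stood for a gene, which gave 14758 genes. The script was tested on simulated data. With 2 arrays a genotype, their number limits the precision.

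The members and gene lists were chosen with earlier results of these data known. Named genes were the targeted genes and Hprt, the 10 higher and 10 lower genes with the widest gap, up to 4 of each list by p, and genes the study names. Gpnmb, Aif1, the C1q genes, Clec4f, Adgre1, Fgb, Crp, Iigp1, Irgm2, Hmgcs1, Insig1, Scd1, Cyc1, Hspa5, Calr, Syvn1, Arntl, Fos, Ppp3ca, Sae1 and the neighbours of Apoe were added after their values were seen. Alternatives were other offsets, filters, scaling, variance models, probe set rules, the arrays in the fit, the replicate number as a block, and leaving out each array.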

Additional observations from a re-analysis of the deposited data

How the results depend on the processing

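Apoe stayed between −6.75 and −6.01 when each array was left out in turn, but was the only gene whose call could be lost. The count of calls was 0 with an offset of 1 (Apoe −6.47, adjusted p = 0.133 by limma), with only the 4 arrays compared in the fit (Apoe −6.38, adjusted p = 0.331 by limma) and by the methods' t-test after Benjamini-Hochberg, which before adjustment had 368 higher and 381 lower genes with p under 0.05. Over the fits that left out 1 array it ran from 0 to 1. It was 2 with an offset of 64, where Saa3 joined Apoe, and 14 with a trended and robust variance model, which added Saa3, Id2, Lgals3, Vcam1, Lyz2, Clec7a, Sae1, Cd5l, Cxcl1 and Tmsb4x as higher and Tsc22d3, Ppp5c and Tcim as lower.

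Genes over 2-fold apart without overlap numbered 31 higher and 24 lower with an offset of 64, and 72 higher and 45 lower as the mean of a gene's probe sets. Leaving out 1 array gave 112 to 661 higher and 86 to 293 lower, the most without ApoE null replicate 2, since a lone array overlaps less often. Those with an unadjusted p under 0.05 were 208 higher and 196 lower under a filter on a mean signal over 100, and 265 to 771 higher and 173 to 625 lower with 1 array left out. Those left-out fits assume that a lone array varies like the other genotypes.

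List medians with 1 array left out ran from 0.49 to 0.82 for macrophage markers, 0.20 to 0.59 for interferon genes, −0.21 to 0.90 for cholesterol enzymes, −0.35 to −0.19 for the respiratory chain and −0.33 to −0.14 for ER stress. Medians beyond the spread between replicates turned round for SREBP2 control (0.01 with an offset of 64, 0.09 as the mean of probe sets), the clock (0.11 as the mean of probe sets, −0.27 to 0.02 with 1 array left out), lipid droplet genes (−0.05 to 0.13 with 1 array left out) and gluconeogenesis (−0.34 to 0.09, positive without Dscr-1 null replicate 2). Medians within that spread also changed sign with 1 array left out: endothelial −0.31 to 0.57, neutrophil −0.37 to 0.67, cholangiocyte −0.53 to 0.96, female-biased genes −0.24 to 1.01, proliferation −0.02 to 0.56, acute phase −0.14 to 0.33, cytokines −0.08 to 0.26, immediate early genes −0.06 to 0.50, efflux −0.19 to 0.09, apolipoproteins −0.13 to 0.03, p53 targets −0.44 to 0.11 and adipocyte −0.20 to 0.10. Of 35 single genes 8 turned round at least once. As the mean of probe sets Rcan1 was 0.27, Atf6 0.02, Msr1 −0.21, Nfatc2 0.70 and Nfatc3 −0.43. Rcan1 was also 0.01 with an offset of 64 and 0.06 after quantile normalization. With 1 array left out, the ranges were −0.72 to 0.70 for Rcan1, −0.47 to 0.06 for Atf6, −0.58 to 0.27 for Nfatc2, −0.01 to 0.30 for Nfatc3, −0.38 to 0.18 for Nfatc1, −0.38 to 0.13 for Apob and −0.01 to 0.25 for Atf4. The cause was not tested.

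Replicate numbers did not pair the arrays, with correlations of same-numbered deviations of −0.00155 to 0.0293. With the replicate block the count of calls was 1, Apoe had an adjusted p of 0.0286 by limma, an unadjusted p under 0.05 was reached by 479 higher and 313 lower genes, and the medians of the lists did not move. Some small lists had no member left under the stricter filters and gave no value there. Without detection calls, signals of a few units cannot be told from background.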
